A study of Mus musculus with 24 samples.

Results

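The genes described here build the MHC class I molecule and its peptide cargo. They are the heavy chains H2-K1, H2-D1, H2-T3, H2-T23 and H2-M3, the light chain B2m, the peptide transporter subunits Tap1 and Tap2, and the immunoproteasome subunits Psmb8 and Psmb9. They were chosen by name: every non-control probe that the array gives one of these 10 gene names was taken, each on its own, which gave 11 probes of 55681. H2-K1 had 2 probes and each other gene had 1. All 11 passed the filter on dim probes, which left 42316 probes, and H2-T3 passed through the B10.BR groups only.

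Gene expression was measured in whole mouse spleen with 24 one-colour Agilent arrays. The irradiated groups were taken 24 hours after total body irradiation with X-rays, and the labels give no time for the groups of 0 cGy. B10.BR mice received 0, 300, 500 or 900 cGy, and BALB.K mice received 0, 300, 400 or 800 cGy. Each of the 8 groups had 3 arrays, and each array held RNA pooled from 3 mice, so that the spread between replicates is that between pools. The series calls the highest dose of each strain myeloablative, which means that it destroys the bone marrow. No transgene or knockout is named for either strain, and both carry the k haplotype of the MHC, called H2 in mice. Whether the whole H2 region is the same in the strains was not tested.

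MHC class I molecules show peptides from inside the cell to CD8 T cells and NK cells. The proteasome cuts proteins into peptides, and its immune form carries inducible subunits such as Psmb8 and Psmb9. Tap1 and Tap2 pump the peptides into the endoplasmic reticulum, where the heavy chain, held by B2m and by chaperones, is loaded before it goes to the surface. Interferons are known inducers of most of these genes, and lymphocytes and macrophages of the spleen express class I constitutively.

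Upstream sequence is shown for 4 members whose probes changed in at least one comparison and that between them hold each motif searched, because promoters of class I genes are known to share an enhancer, an interferon response element and a downstream X and CCAAT box module. The 200 bases before the transcription start are given 5′ to 3′ on the gene's own strand, from RefSeq (GRCm38.p6). Capitals mark matches, on either strand, to GGGATTCCC (the core of the class I enhancer), TTTCACTT (an interferon response core), TTTC followed after any 2 bases by TTTC again (an interferon response element with both repeats), TGACG (a cyclic AMP response core) and CCAAT. They are reference sequence, not sequence of the strains studied. H2-K1 is from chr17:34000348-34000547 on the minus strand, H2-D1 from chr17:35262894-35263093 on the plus strand, H2-T3 from chr17:36190152-36190351 on the minus strand and B2m from chr2:122147487-122147686 on the plus strand.
H2-K1: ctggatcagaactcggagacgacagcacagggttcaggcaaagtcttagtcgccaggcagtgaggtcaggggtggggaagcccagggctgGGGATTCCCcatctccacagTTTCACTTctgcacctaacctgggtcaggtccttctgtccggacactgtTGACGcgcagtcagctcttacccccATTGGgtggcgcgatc
H2-D1: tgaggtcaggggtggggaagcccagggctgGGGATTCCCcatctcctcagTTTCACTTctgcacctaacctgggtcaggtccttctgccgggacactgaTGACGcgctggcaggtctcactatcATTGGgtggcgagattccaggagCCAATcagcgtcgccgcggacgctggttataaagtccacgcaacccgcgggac
H2-T3: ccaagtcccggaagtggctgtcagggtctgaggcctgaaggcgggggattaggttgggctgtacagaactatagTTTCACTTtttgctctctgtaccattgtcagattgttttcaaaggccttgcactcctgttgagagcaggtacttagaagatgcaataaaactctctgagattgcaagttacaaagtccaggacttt
B2m: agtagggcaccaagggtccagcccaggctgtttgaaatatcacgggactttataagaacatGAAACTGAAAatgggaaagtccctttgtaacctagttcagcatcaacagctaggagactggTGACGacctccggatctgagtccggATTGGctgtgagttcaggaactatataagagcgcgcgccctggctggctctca

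Of the 10 genes, 9 had a promoter in the RefSeq table. H2-K1 had 2 entries, of which the first is shown. Over the 250 bases before the start, GGGATTCCC lay in 2 of the 9 (H2-K1 and H2-D1) and in 0.301% of 32851 promoters. The windows of these 2 genes shared an unbroken run of 47 bases. TTTCACTT lay in 4 of the 9 (H2-K1, H2-D1, H2-T3 and H2-M3) and in 1.36% of all promoters. The element with both repeats lay in 2 (H2-T23 and B2m) and in 2.98%, TGACG in 6 and in 17.8%, and CCAAT in 7 and in 33.8%. These motifs do not overlap one another within the windows printed above. None of the 5 was found before Psmb8. The starts of Tap1 and Psmb9 face away from each other with 225 bases between them, so that their upstream windows cover largely the same DNA.

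The scale of all levels below is log2 of the processed signal minus the array's 75th percentile, so that 0 is the level of a probe at that percentile. Levels of different probes cannot be set against each other. Per array, between 67.0% and 77.0% of probes exceeded background clearly, as the extraction software marks it, and 75th percentiles lay between 830.3 and 1235 intensity units. Of the members, 10 probes were well above background on all 24 arrays, and H2-T3 on the 12 B10.BR arrays and on none of BALB.K. A change is called where the adjusted p of limma's fit over all arrays, with Benjamini-Hochberg adjustment over all 42316 probes, was below 0.05, and changes are given ± the standard error of that fit with 3 arrays against 3. The glass carried 8 arrays a slide. B10.BR at 0 and 300 cGy and 2 arrays of 500 cGy shared slide 1, the other B10.BR arrays, BALB.K at 0 and 1 BALB.K array of 300 cGy shared slide 2, and slide 3 carried the rest, so that no slide held both groups for B10.BR at 900 cGy, for BALB.K at 400 and 800 cGy, or for the strains at 0.

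The cell makeup of the spleen moved with dose. The summed linear level of 8 B cell markers, relative to the 75th percentile, was 42.2 to 46.5 in B10.BR at 900 cGy against 241 to 267 at 0, and 29.1 to 30.0 in BALB.K at 800 cGy against 201 to 208 at 0. For 7 erythroid markers the sums were 47.4 to 78.6 against 177 to 197 in these B10.BR groups. In those BALB.K groups they were 52.2 to 64.1 against 323 to 393. Marker by marker the fall was larger than in the sums, with a median log2 change of -8.58 in B10.BR and -5.95 in BALB.K. Only 2 to 3 of the 7 were above background in B10.BR at 900 cGy. Sums of 6 stroma and endothelium markers went up, to 157.4 to 175.5 against 53.4 to 59.1 in B10.BR. In BALB.K they were 130 to 143 against 41.1 to 43.5. All 9 macrophage marker entries were called higher at every dose of both strains, with sums of 308 to 336 in B10.BR at 900 cGy against 78.1 to 85.8 at 0, and of 213 to 240 in BALB.K at 800 cGy against 43.7 to 53.8 at 0. Adgre1 stands in that list also as Emr1, its older name, and enters the count and the sums under both names. The sum of 10 interferon response genes in B10.BR was 53.2 to 69.0 at 0, 216 to 241 at 300 cGy, 259 to 300.0 at 500 cGy and 167 to 205 at 900 cGy. In BALB.K it was 93.7 to 102 at 0, 159 to 278 at 300 cGy, 165 to 251 at 400 cGy and 241 to 282 at 800 cGy. Of these 10 genes, 9 were called higher in each of the 6 comparisons. The remaining 1 was called lower at each BALB.K dose and was not called at the B10.BR doses. Exocrine pancreas genes (10 measured) ranged between arrays from a sum of 1.36 to 1248. In B10.BR all 10 were called higher at 300 cGy (sums 92.4 to 1118) and 900 cGy (817 to 993), against 1.36 to 7.29 at 0. None was called at 500 cGy, and in BALB.K 1 was called, at 800 cGy. Y-linked genes were at background on some BALB.K arrays of 0, 300 and 400 cGy, while the sex of the mice is not stated. Their sum was 7.55 to 8.80 in BALB.K at 800 cGy, 0.02 to 11.95 there at 0, and 14.0 to 14.6 in B10.BR at 0. BALB.K at 800 cGy thus differed from 0 and 400 cGy in Y-linked level too, as did the strains at 0. In whole spleen, fewer cells of a type and less RNA per cell cannot be told apart, and the part of these shifts in the changes below was not tested.

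**Figure D1:**
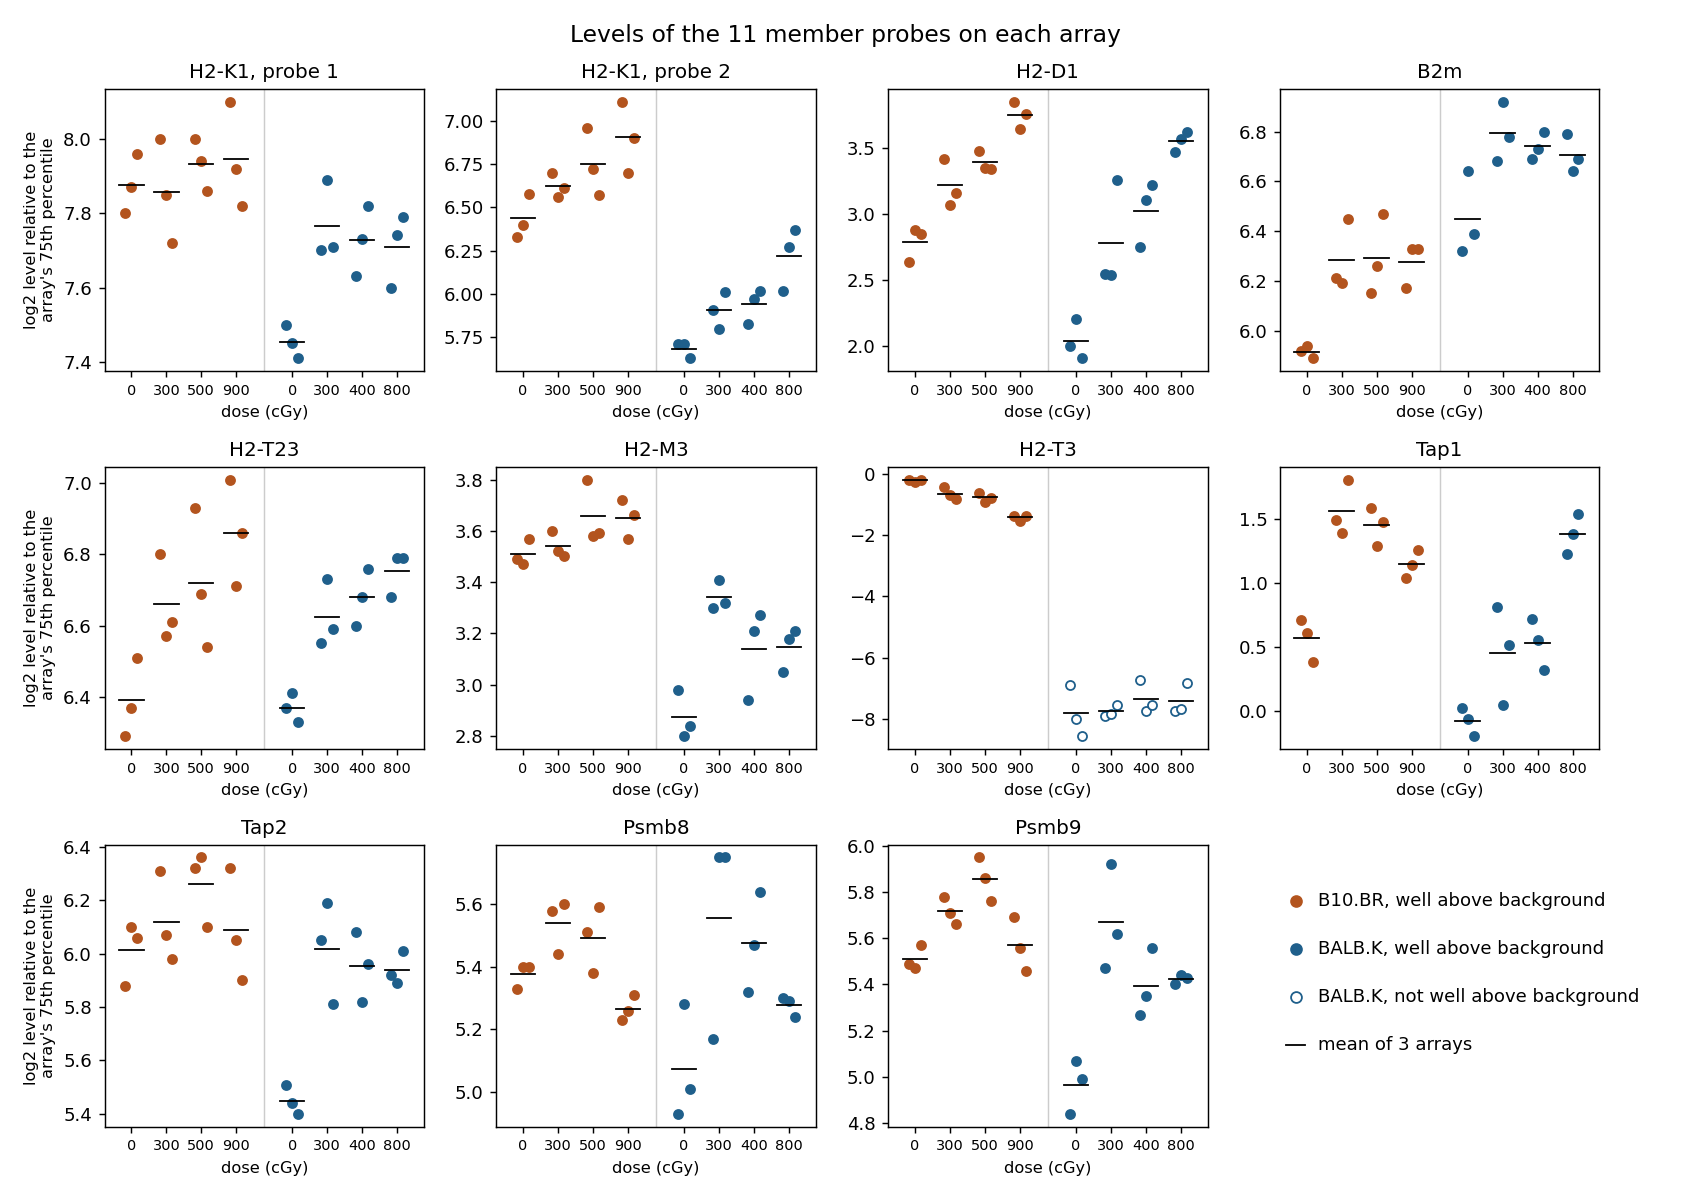
Levels of the 11 probes (log2 signal relative to the array's 75th percentile) by dose in cGy, with B10.BR left and BALB.K right in each panel. Points are arrays, each a pool of 3 mice, and bars are group means (n = 3) without a spread. The group means of H2-D1 are ordered by dose in both strains, and H2-T3 lies above background in B10.BR only.

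H2-D1, B2m and Tap1 rose at every dose of both strains, and the other members were called at some doses or in 1 strain. Fewer members were called in B10.BR than in BALB.K, but at the shared dose of 300 cGy the counts were 4 in each strain with slide as a block, and 6 in B10.BR and 3 in BALB.K with spike-in scaling. Of all kept probes the block called 16514 in B10.BR and 14871 in BALB.K at that dose, and spike-in scaling 10063 and 11395. In B10.BR, 3 of 11 probes rose at 300 cGy, where 38.0% of all kept probes were called either way and 17.4% higher. At 500 cGy 6 rose (45.5% either way, 20.3% higher), and at 900 cGy 5 rose and H2-T3 fell (50.9% either way, 24.3% higher, 26.6% lower). In BALB.K, where H2-T3 could not be measured, 8 of 10 probes rose at 300 cGy (42.9% of all probes called either way, 18.6% higher), 9 at 400 cGy (48.1% either way, 24.1% higher) and 9 at 800 cGy (55.6% either way, 27.8% higher). No member fell in BALB.K.

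The median change over the members was 0.18, 0.31 and 0.14 at 300, 500 and 900 cGy in B10.BR, beside -0.06, -0.08 and 0.01 over all kept probes. In BALB.K it was 0.48, 0.35 and 0.42 at 300, 400 and 800 cGy, beside -0.13, 0.01 and 0.08. The sizes were mostly small: 1 member changed at least 2-fold in B10.BR at 900 cGy and 2 in BALB.K at 800 cGy, and none at the other doses. The 3 arrays of the irradiated and the unirradiated group did not overlap for 7 of 11 probes at each B10.BR dose, and for 9, 9 and 8 of 10 at 300, 400 and 800 cGy in BALB.K. How many of all kept probes did not overlap was not counted, so that these numbers do not set the members apart.

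These counts depended on the scaling, the slide and single arrays. Scaling on spike-in probes moved the median of all probes by 0.33, 0.32 and 0.39 in B10.BR and by -0.08, 0.07 and 0.36 in BALB.K at the 3 doses, and called 6, 7 and 8 members in B10.BR and 3, 2 and 9 in BALB.K. Of all kept probes it called 10063, 12475 and 17499 in B10.BR and 11395, 13509 and 20286 in BALB.K. The main fit called 16092, 19234 and 21540 in B10.BR and 18155, 20365 and 23513 in BALB.K. With slide as a block 4, 6 and 3 members were called at 300, 500 and 900 cGy in B10.BR, and 4, 1 and 2 at 300, 400 and 800 cGy in BALB.K. Of all kept probes the block called 16514, 18532 and 14254 in B10.BR and 14871, 14813 and 17733 in BALB.K. Left out 1 at a time, arrays moved the count to 1 at 300 cGy in B10.BR (without 300 cGy replicate 3), to 3 at 500 cGy (without 500 cGy replicate 1) and to 4 at 400 cGy in BALB.K (without 0 cGy replicate 3 or 400 cGy replicate 3). The calls that held under the block and without any 1 array were Tap1 at 300 cGy, H2-D1, B2m and Tap1 at 500 cGy and H2-D1, H2-T23 and the H2-K1 probe that shares sequence with H2-T23 at 900 cGy in B10.BR, and H2-M3, Tap2 and Psmb9 at 300 cGy, Tap1 at 400 cGy and H2-D1 and Tap1 at 800 cGy in BALB.K.

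**Figure D2:**
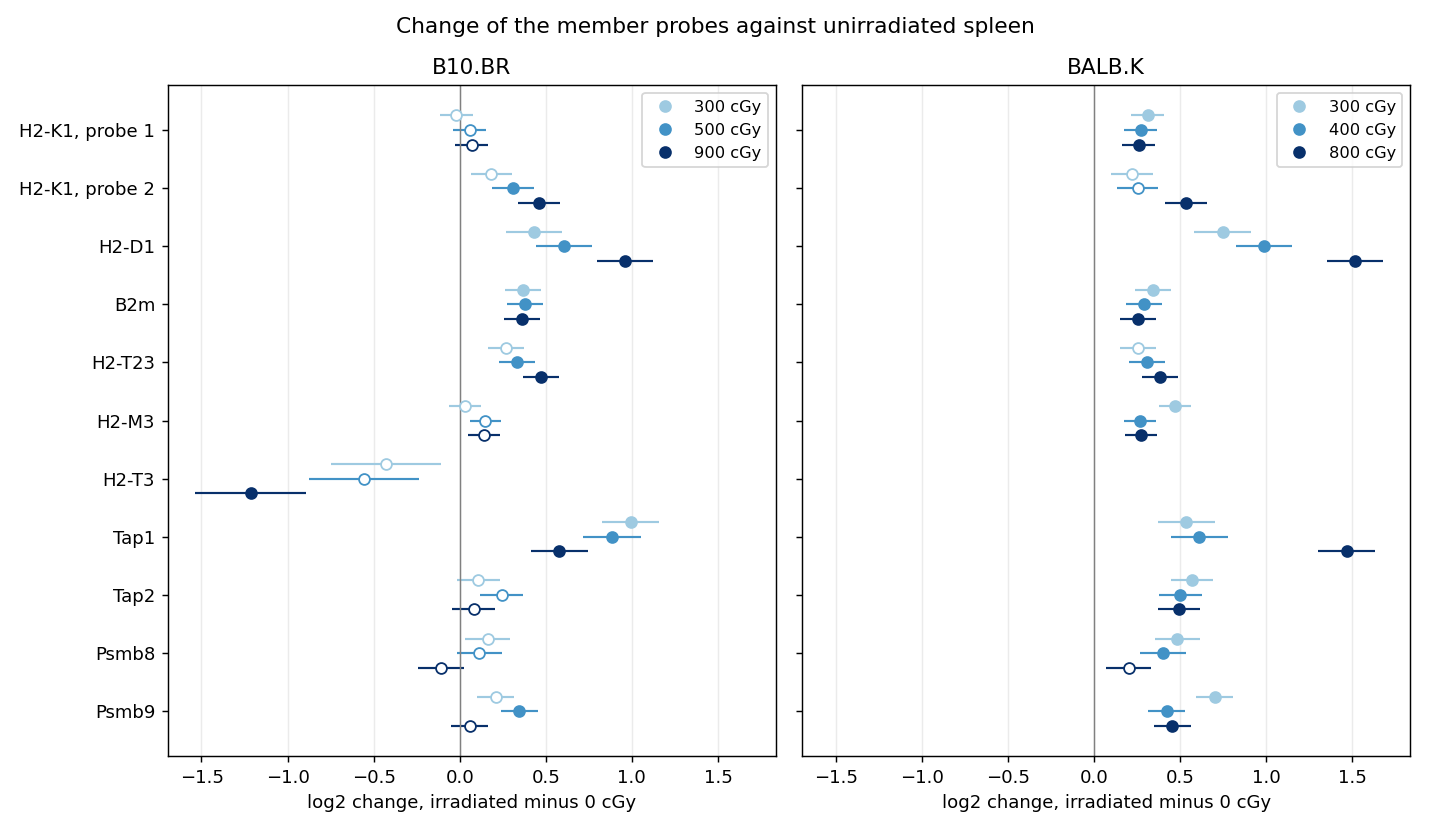
Change of each member against 0 cGy of its own strain (log2 difference, bars show the standard error of the fit) at each dose, with filled points past adjusted p 0.05 and open points not. The largest rises are H2-D1 (1.51) and Tap1 (1.47) in BALB.K at 800 cGy, and H2-T3 in B10.BR at 900 cGy lies lowest at -1.22.

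H2-D1, one of the classical class I heavy chains, rose at every dose of both strains. Its probe lies on chr17:35403886-35403945 (mm9, plus strand) and shared no run of 20 bases with another probe of the array. In B10.BR, H2-D1 lay at 2.64, 2.88 and 2.85 at 0 cGy, at 3.42, 3.07 and 3.16 at 300 cGy, at 3.48, 3.35 and 3.34 at 500 cGy and at 3.85, 3.64 and 3.76 at 900 cGy. In BALB.K, H2-D1 lay at 2.0, 2.21 and 1.91 at 0 cGy, at 2.55, 2.54 and 3.26 at 300 cGy, at 2.75, 3.11 and 3.22 at 400 cGy and at 3.47, 3.57 and 3.62 at 800 cGy. Every irradiated array stood above every unirradiated array of its strain, and the highest dose stood above the dose before it in both strains.

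The H2-D1 change in B10.BR was 0.43 ± 0.16 at 300 cGy (adjusted p = 0.0445), 0.60 ± 0.16 at 500 cGy (adjusted p = 0.00501) and 0.96 ± 0.16 at 900 cGy (adjusted p = 6.15e-05), the last a rise of 1.95-fold. In BALB.K it was 0.75 ± 0.16 at 300 cGy (adjusted p = 0.00109), 0.99 ± 0.16 at 400 cGy (adjusted p = 5.87e-05) and 1.51 ± 0.16 at 800 cGy (adjusted p = 2.4e-07), the last a rise of 2.86-fold. The call at 300 cGy in B10.BR was lost on leaving out any of 5 of the 6 arrays and kept only without 300 cGy replicate 2. Under a slide block the BALB.K changes were 0.52 at 300 cGy (adjusted p = 0.0927), 0.64 at 400 cGy (adjusted p = 0.1) and 1.17 at 800 cGy (adjusted p = 0.00426).

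Both H2-K1 probes lie on the minus strand, the first, with 10 spots, on chr17:34133055-34133114 and the other on chr17:34133984-34134043 (mm9). H2-K1 is the other classical heavy chain of these strains. The other probe is shown with that of H2-T23 because they share the stretch in capitals, 29 bases long, so that RNA of either gene may add to the signal of both.
H2-K1: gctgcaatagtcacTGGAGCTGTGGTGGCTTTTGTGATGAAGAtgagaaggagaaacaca
H2-T23: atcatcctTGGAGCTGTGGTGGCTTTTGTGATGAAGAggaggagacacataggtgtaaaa

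The first H2-K1 probe, which shared no such run, rose in BALB.K and was not called in B10.BR. In B10.BR it lay at 7.80, 7.87 and 7.96 at 0 cGy, at 8.0, 7.85 and 7.72 at 300 cGy, at 8.0, 7.94 and 7.86 at 500 cGy and at 8.10, 7.92 and 7.82 at 900 cGy. In BALB.K it lay at 7.50, 7.45 and 7.41 at 0 cGy, at 7.70, 7.89 and 7.71 at 300 cGy, at 7.63, 7.73 and 7.82 at 400 cGy and at 7.60, 7.74 and 7.79 at 800 cGy. The B10.BR groups overlapped at every dose, whereas all irradiated BALB.K arrays stood above the 3 unirradiated ones. The changes in B10.BR were -0.02, 0.06 and 0.07 (each ± 0.09, adjusted p = 0.906, 0.667 and 0.58) at 300, 500 and 900 cGy. Those in BALB.K were 0.31, 0.27 and 0.26 (each ± 0.09, adjusted p = 0.0123, 0.0245 and 0.0266) at 300, 400 and 800 cGy. The BALB.K calls were lost in 1, 3 and 3 of the 6 fits that left out 1 array at 300, 400 and 800 cGy. Fitted with slide as a block, the BALB.K changes were 0.25, 0.17 and 0.16 and were not called.

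The H2-K1 probe that shares sequence with H2-T23 gave larger changes at the highest doses. It lay at 7.11, 6.70 and 6.90 in B10.BR at 900 cGy against 6.33, 6.4 and 6.58 at 0, and at 6.02, 6.27 and 6.37 in BALB.K at 800 cGy against 5.71, 5.71 and 5.63 at 0. Neither pair of groups overlapped. Its change was 0.46 ± 0.12 in B10.BR (adjusted p = 0.00333) and 0.54 ± 0.12 in BALB.K (adjusted p = 0.000904). At the lower doses it was 0.18 and 0.31 in B10.BR, of which the value at 500 cGy passed (adjusted p = 0.0441), and 0.22 and 0.25 in BALB.K, of which none passed. The B10.BR call of this probe at 500 cGy was lost in 4 of the 6 fits that left out 1 array. The probes of H2-K1 thus differed in B10.BR at 900 cGy, where one gave 0.07 and the other 0.46.

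B2m, the light chain that every class I heavy chain needs, rose by a similar step at every dose. Its probe lies on chr2:121978401-121978460 (mm9, plus strand), the only member outside chromosome 17. In B10.BR, B2m lay at 5.92, 5.94 and 5.89 at 0 cGy, at 6.21, 6.19 and 6.45 at 300 cGy, at 6.15, 6.26 and 6.47 at 500 cGy and at 6.17, 6.33 and 6.33 at 900 cGy. In BALB.K, B2m lay at 6.32, 6.64 and 6.39 at 0 cGy, at 6.68, 6.92 and 6.78 at 300 cGy, at 6.69, 6.73 and 6.80 at 400 cGy and at 6.79, 6.64 and 6.69 at 800 cGy. All irradiated arrays stood above the unirradiated ones in B10.BR and, except at 800 cGy, in BALB.K.

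The B2m change was 0.37, 0.38 and 0.36 (each ± 0.10, adjusted p = 0.00875, 0.00558 and 0.00675) at 300, 500 and 900 cGy in B10.BR. It was 0.34, 0.29 and 0.25 (each ± 0.10, adjusted p = 0.0133, 0.0283 and 0.0474) at 300, 400 and 800 cGy in BALB.K. The BALB.K call at 800 cGy was lost on leaving out any of 5 of the 6 arrays and kept without 0 cGy replicate 2. Those at 300 and 400 cGy in BALB.K were lost in 2 and 4 of the 6 fits that left out 1 array. The B10.BR call at 300 cGy was lost without 300 cGy replicate 3 (adjusted p = 0.0554). Blocked by slide, B2m was not called at 900 cGy in B10.BR (0.10, adjusted p = 0.726) or at any BALB.K dose (0.23, 0.12 and 0.09).

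The nonclassical heavy chains went different ways: H2-T23 rose in both strains, H2-M3 in BALB.K, and H2-T3 fell in B10.BR. H2-T23 encodes Qa-1, which shows leader peptides of other class I chains to NK cell receptors. The coordinates of its probe, chr17:36167338-36167574 (mm9, minus strand), span 237 bases for a probe of 60, so that the probe is not one unbroken stretch of the genome. In B10.BR, H2-T23 lay at 6.29, 6.37 and 6.51 at 0 cGy, at 6.80, 6.57 and 6.61 at 300 cGy, at 6.93, 6.69 and 6.54 at 500 cGy and at 7.01, 6.71 and 6.86 at 900 cGy. In BALB.K, H2-T23 lay at 6.37, 6.41 and 6.33 at 0 cGy, at 6.55, 6.73 and 6.59 at 300 cGy, at 6.60, 6.68 and 6.76 at 400 cGy and at 6.68, 6.79 and 6.79 at 800 cGy. No irradiated array overlapped the unirradiated ones of its strain.

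The H2-T23 change was 0.27, 0.33 and 0.47 (each ± 0.10, adjusted p = 0.0508, 0.0143 and 0.000895) at 300, 500 and 900 cGy in B10.BR, and 0.26, 0.31 and 0.38 (each ± 0.10, adjusted p = 0.0561, 0.0208 and 0.0045) at 300, 400 and 800 cGy in BALB.K. It therefore missed the threshold at 300 cGy in each strain and passed it above. The B10.BR call at 500 cGy was lost without 0 cGy replicate 1 or 500 cGy replicate 1, and the BALB.K call at 400 cGy in 2 of the 6 fits that left out 1 array. Blocked by slide, H2-T23 was called at all 3 B10.BR doses and at none in BALB.K (0.20 at 400 cGy and 0.27 at 800 cGy).

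H2-M3 presents N-formylated peptides, as bacteria and mitochondria make them. Its probe lies on chr17:37411350-37411409 (mm9, plus strand). In B10.BR, H2-M3 lay at 3.49, 3.47 and 3.57 at 0 cGy, at 3.60, 3.52 and 3.50 at 300 cGy, at 3.8, 3.58 and 3.59 at 500 cGy and at 3.72, 3.57 and 3.66 at 900 cGy. In BALB.K, H2-M3 lay at 2.98, 2.80 and 2.84 at 0 cGy, at 3.30, 3.41 and 3.32 at 300 cGy, at 2.94, 3.21 and 3.27 at 400 cGy and at 3.05, 3.18 and 3.21 at 800 cGy. The lowest BALB.K dose held the highest levels of that strain, and all its irradiated arrays except one of 400 cGy stood above the unirradiated ones.

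The H2-M3 change was 0.03, 0.15 and 0.14 (each ± 0.09, adjusted p = 0.839, 0.208 and 0.216) at 300, 500 and 900 cGy in B10.BR. In BALB.K it was 0.47, 0.27 and 0.27 (each ± 0.09, adjusted p = 0.000427, 0.0228 and 0.0171) at 300, 400 and 800 cGy. The calls at 400 and 800 cGy were each lost on leaving out any of 4 of the 6 arrays, and with slide as a block they were 0.20 and 0.21 and did not pass, whereas the value at 300 cGy was 0.43 and did.

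H2-T3 encodes the thymus leukemia antigen, a nonclassical chain known from intestinal epithelium and, in some mouse strains, from thymocytes. Its probe lies on chr17:36322516-36322575 (mm9, minus strand) and shared a run of 22 bases with a probe of H2-Q10. In B10.BR, H2-T3 lay at -0.18, -0.27 and -0.18 at 0 cGy, at -0.42, -0.69 and -0.81 at 300 cGy, at -0.61, -0.92 and -0.77 at 500 cGy and at -1.38, -1.52 and -1.36 at 900 cGy. Each irradiated group lay below the unirradiated one without overlap, and 900 cGy lay below 500 cGy without overlap. On the 12 BALB.K arrays the probe was not well above background, with measured values between -8.56 and -6.74.

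The H2-T3 change in B10.BR was -0.43, -0.56 and -1.22 (each ± 0.32, adjusted p = 0.33, 0.174 and 0.00357) at 300, 500 and 900 cGy, the last a level 0.431 of that at 0. The standard error of H2-T3 was the largest of the members, and its BALB.K values at background enter that error. Within slide 1, where only the B10.BR arrays of 0, 300 and 500 cGy enter, H2-T3 was called lower at 300 cGy (-0.43, adjusted p = 0.0453) and at 500 cGy (-0.55, adjusted p = 0.0238). Under a slide block the value at 900 cGy was -1.21 and with spike-in scaling -0.83, neither of them called (adjusted p = 0.143 and 0.0648). Of 8 T cell markers 7 fell at 900 cGy in B10.BR, with a sum of 30.4 to 32.7 against 114 to 129 at 0. All 8 B cell markers and 7 of 7 erythroid markers fell there too, and their part in the H2-T3 change was not tested.

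The peptide transporter subunits differed in their calls, with Tap1 called higher at every dose of both strains and Tap2 at the 3 BALB.K doses. Their changes were not tested against each other. The Tap1 probe, with 10 spots, lies on chr17:34330854-34330913 (mm9, plus strand). In B10.BR, Tap1 lay at 0.71, 0.61 and 0.38 at 0 cGy, at 1.49, 1.39 and 1.81 at 300 cGy, at 1.59, 1.29 and 1.48 at 500 cGy and at 1.04, 1.14 and 1.26 at 900 cGy. In BALB.K, Tap1 lay at 0.02, -0.07 and -0.20 at 0 cGy, at 0.81, 0.04 and 0.51 at 300 cGy, at 0.72, 0.55 and 0.32 at 400 cGy and at 1.23, 1.38 and 1.54 at 800 cGy. The unirradiated arrays were the lowest in both strains without overlap. In B10.BR the 900 cGy arrays lay below those of 500 cGy, and in BALB.K the 800 cGy arrays lay above those of 400 cGy.

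The Tap1 change in B10.BR was 0.99 ± 0.17 at 300 cGy (adjusted p = 0.000107), 0.88 ± 0.17 at 500 cGy (adjusted p = 0.000226) and 0.58 ± 0.17 at 900 cGy (adjusted p = 0.00679). In BALB.K it was 0.54 ± 0.17 at 300 cGy (adjusted p = 0.014), 0.61 ± 0.17 at 400 cGy (adjusted p = 0.0051) and 1.47 ± 0.17 at 800 cGy (adjusted p = 4.51e-07), the last a rise of 2.77-fold. The sum of interferon response genes was lower at 900 than at 500 cGy in B10.BR without overlap, and in BALB.K its range at 800 cGy overlapped those at 300 and 400 cGy. Gene by gene, 3 of the 10 were called lower at 900 than at 500 cGy in B10.BR (median -0.70). From 400 to 800 cGy in BALB.K 2 of 10 were called higher (median 0.31). Of all probes 3.40% and 17.7% were called either way in these steps. The part of these genes in the Tap1 change was not tested. The BALB.K Tap1 call at 300 cGy was lost without 0 cGy replicate 3 or 300 cGy replicate 1, where the adjusted p reached 0.0969. With slide as a block Tap1 was 0.54 in B10.BR at 900 cGy and not called (adjusted p = 0.143), and was called at the 3 BALB.K doses (0.89, 1.14 and 2.0).

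Tap2, the other subunit of the transporter, has its probe on chr17:34353116-34353175 (mm9, plus strand). In B10.BR, Tap2 lay at 5.88, 6.10 and 6.06 at 0 cGy, at 6.31, 6.07 and 5.98 at 300 cGy, at 6.32, 6.36 and 6.10 at 500 cGy and at 6.32, 6.05 and 5.90 at 900 cGy. In BALB.K, Tap2 lay at 5.51, 5.44 and 5.40 at 0 cGy, at 6.05, 6.19 and 5.81 at 300 cGy, at 6.08, 5.82 and 5.96 at 400 cGy and at 5.92, 5.89 and 6.01 at 800 cGy. The B10.BR groups overlapped and the BALB.K groups did not. Its change was 0.11, 0.24 and 0.08 (each ± 0.12, adjusted p = 0.56, 0.125 and 0.626) at 300, 500 and 900 cGy in B10.BR, and 0.57, 0.50 and 0.49 (each ± 0.12, adjusted p = 0.0011, 0.00257 and 0.00236) at 300, 400 and 800 cGy in BALB.K. With slide as a block the BALB.K values were 0.60 at 300 cGy, called, and 0.55 and 0.54 at 400 and 800 cGy, not called (adjusted p = 0.0671 and 0.0621).

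Of the immunoproteasome subunits, Psmb9 rose at all 3 BALB.K doses and at 500 cGy in B10.BR, and Psmb8 at 300 and 400 cGy in BALB.K. Psmb9 (LMP2) replaces the constitutive subunit Psmb6, and its probe lies on chr17:34319174-34319233 (mm9, minus strand). In B10.BR, Psmb9 lay at 5.49, 5.47 and 5.57 at 0 cGy, at 5.78, 5.71 and 5.66 at 300 cGy, at 5.95, 5.86 and 5.76 at 500 cGy and at 5.69, 5.56 and 5.46 at 900 cGy. In BALB.K, Psmb9 lay at 4.84, 5.07 and 4.99 at 0 cGy, at 5.47, 5.92 and 5.62 at 300 cGy, at 5.27, 5.35 and 5.56 at 400 cGy and at 5.40, 5.44 and 5.43 at 800 cGy. The irradiated arrays of BALB.K stood above the unirradiated ones at each dose, and those of B10.BR at 300 and 500 cGy.

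The Psmb9 change was 0.21, 0.35 and 0.06 (each ± 0.11, adjusted p = 0.144, 0.0131 and 0.684) at 300, 500 and 900 cGy in B10.BR, and 0.70, 0.42 and 0.46 (each ± 0.11, adjusted p = 3.49e-05, 0.00322 and 0.00139) at 300, 400 and 800 cGy in BALB.K. The B10.BR call at 500 cGy was lost without 500 cGy replicate 1 (adjusted p = 0.0591). With slide as a block the BALB.K values were 0.50 at 300 cGy, called, and 0.12 and 0.15 at 400 and 800 cGy, not called.

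Psmb8 (LMP7) replaces Psmb5, and its probe lies on chr17:34337771-34337830 (mm9, plus strand). In B10.BR, Psmb8 lay at 5.33, 5.40 and 5.40 at 0 cGy, at 5.58, 5.44 and 5.60 at 300 cGy, at 5.51, 5.38 and 5.59 at 500 cGy and at 5.23, 5.26 and 5.31 at 900 cGy. In BALB.K, Psmb8 lay at 4.93, 5.28 and 5.01 at 0 cGy, at 5.17, 5.75 and 5.75 at 300 cGy, at 5.32, 5.47 and 5.64 at 400 cGy and at 5.30, 5.29 and 5.24 at 800 cGy. The groups of 300 cGy in B10.BR and 400 cGy in BALB.K stood above the unirradiated arrays of their strain, that of 900 cGy in B10.BR below, and the others overlapped. Its change was 0.16, 0.11 and -0.11 (each ± 0.13, none called) at 300, 500 and 900 cGy in B10.BR. In BALB.K it was 0.48, 0.40 and 0.20 (each ± 0.13, adjusted p = 0.00583, 0.0169 and 0.2) at 300, 400 and 800 cGy. The call at 400 cGy was lost in 3 of the 6 fits that left out 1 array. With slide as a block the Psmb8 change was 0.10, -0.18 and -0.38 at 300, 400 and 800 cGy in BALB.K, so that the sign turned at 400 and 800 cGy and none was called.

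The dose steps asked whether the members moved on between successive doses. From 400 to 800 cGy in BALB.K, 2 of 10 members rose, beside 17.7% of all probes called either way and 7.99% higher: H2-D1 by 0.53 ± 0.16 (adjusted p = 0.0319) and Tap1 by 0.86 ± 0.17 (adjusted p = 0.0018). The H2-D1 call was lost on leaving out any of 5 of the 6 arrays, and within slide 3, which holds both groups, its adjusted p was 0.0999. In the other 3 steps limma called 0 members, with 2 of 10 at an unadjusted p under 0.05 for 400 against 300 cGy in BALB.K, none of 11 for 500 against 300 cGy and 2 of 11 for 900 against 500 cGy in B10.BR. Of all probes 3.67%, 1.12% and 3.40% were called in those steps. Tap1 changed by -0.31 ± 0.17 from 500 to 900 cGy in B10.BR, which did not pass (adjusted p = 0.365).

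Without irradiation, B10.BR spleens had higher levels than BALB.K spleens for 8 of 11 member probes and a lower level of B2m, beside 51.0% of all probes called either way, 21.2% higher and 29.9% lower in B10.BR. The arrays of the strains did not overlap for 10 of the 11, and the exception was H2-T23 (difference 0.02 ± 0.10, adjusted p = 0.9). Overlap was not counted over all probes, so that this number does not set the members apart. H2-T3 is among the 8 and the 10. It passed the filter through the B10.BR groups only and adds no support to these counts. Heavy chains H2-D1 (0.75 ± 0.16, adjusted p = 0.000967), H2-M3 (0.64 ± 0.09, adjusted p = 2.06e-05) and both H2-K1 probes (0.42 ± 0.09 and 0.76 ± 0.12) were higher in B10.BR. So were Tap1 (0.65 ± 0.17), Tap2 (0.56 ± 0.12) and Psmb9 (0.54 ± 0.11), while Psmb8 did not pass (0.30 ± 0.13, adjusted p = 0.0612). B2m averaged 5.91 ± 0.03 in B10.BR and 6.45 ± 0.17 in BALB.K (SD, n = 3 each), a difference of -0.54 ± 0.10 (adjusted p = 0.000373).

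The size of this strain difference rests on the scaling. The median over the members was 0.56 and that over all probes -0.12, a gap of 0.68. Scaling on spike-in probes moved the median of all probes to -0.81 and turned the sign of the first H2-K1 probe, H2-T23, H2-M3, Tap1, Tap2, Psmb8 and Psmb9 below 0, and 3 members were then called, 1 of them higher in B10.BR. Of all kept probes that scaling called 28619, and 5.80% of those were higher in B10.BR. Strain and slide cannot be told apart at 0 cGy from the arrays compared, and the Y-linked level differed there too. A fit with slide as a block, which links the slides through the other groups, called H2-T3 and H2-M3 (0.54, adjusted p = 0.0397). That fit called 7484 of all kept probes. Whether the strains' sequences differ from the probes was not tested.

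H2-T3 was the extreme case, at -0.21 ± 0.05 in B10.BR and at a measured -7.82 ± 0.85, not well above background, in BALB.K (SD, n = 3 each), both at 0 cGy. Against the lowest signal above background on the BALB.K arrays, where it exceeded the probe's own, H2-T3 was at least 56.3-fold higher in B10.BR. The probe was kept through the B10.BR groups only, so that no p-value is given for this difference. The fold was the group mean of normalized log2 values over the dim group's mean raised to that floor. Over the whole array, 75 probes cleared background on the 12 B10.BR arrays and on none of BALB.K, and 48 the other way round.

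Probes near H2-T3 were looked at by distance alone, after its values had been seen. Within 250 kb on either side lay 39 other kept probes of 32 gene names, and 20 of them differed between the unirradiated strains, 9 higher and 11 lower in B10.BR, beside 51.0% of all probes. At 0.94 kb from H2-T3, the probe of LOC633417 lay at 0.79 ± 0.10 in B10.BR and at -6.90 ± 1.06 in BALB.K, where it was well above background on 1 of 3 arrays. It fell as H2-T3 did, by 2.27 on the log2 scale in B10.BR at 900 cGy (adjusted p = 0.00157). Whether this probe and that of H2-T3 read the same transcript was not tested. Gm8909 lay at 3.96 ± 0.06 in B10.BR and -2.86 ± 0.04 in BALB.K. Going the other way, Gm10499 was above background on all 12 BALB.K arrays and on none of B10.BR, and was at least 12.4-fold higher in BALB.K. H2-T24, a further nonclassical class I gene, was lower in B10.BR on both of its probes (-2.84 ± 0.14 and -3.00 ± 0.14). H2-T23, in the same window, did not differ beyond its error.

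**Figure D3:**
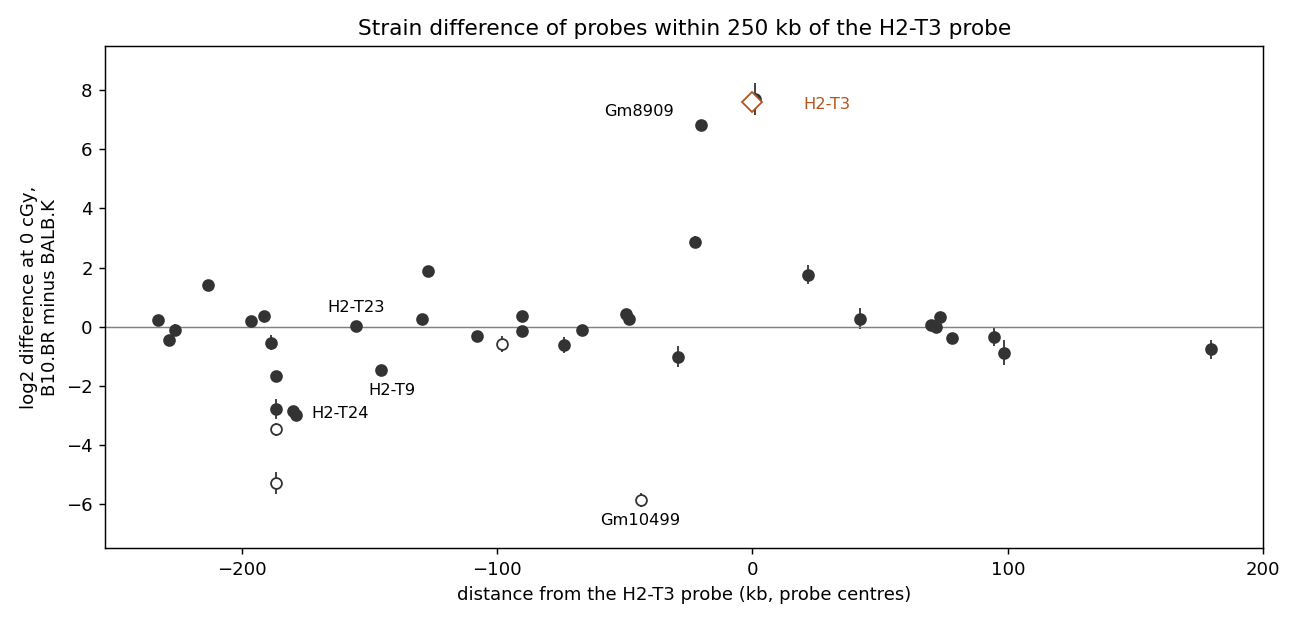
Difference between the unirradiated strains (log2, B10.BR minus BALB.K) of the kept probes within 250 kb of H2-T3, by distance from its probe in kb. The diamond is H2-T3 and open symbols, drawn at their measured values, were not above background in one strain at 0 cGy, so that their size is not exact. Differences of either sign lie in the window, among them Gm8909 (6.82) and H2-T24 (-2.84 and -3.00).

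Whether the strains changed by different amounts was tested in the same fit. At 300 cGy, the dose both strains received, the change of H2-M3 was smaller in B10.BR than in BALB.K by 0.44 ± 0.13 (difference -0.44, adjusted p = 0.0417), and that of Psmb9 by 0.49 ± 0.15 (difference -0.49, adjusted p = 0.0493). These were 2 of 10 members, beside 9.34% of all probes called either way and 3.85% lower. Tap2 (-0.46 ± 0.18, adjusted p = 0.109) and the first H2-K1 probe (-0.33 ± 0.13, adjusted p = 0.132) did not pass. Tap1 went the other way without passing (0.46 ± 0.24, adjusted p = 0.242), and H2-T23 (0.01 ± 0.15) and B2m (0.03 ± 0.15) differed by less than their error. Both calls were lost under the slide block and in most fits without 1 array (9 of 12 for H2-M3 and 11 of 12 for Psmb9), and with spike-in scaling the differences were -0.03 and -0.08 for H2-M3 and Psmb9.

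At the myeloablative doses, which differ by strain, the Tap1 change was 0.58 at 900 cGy in B10.BR and 1.47 at 800 cGy in BALB.K, a difference of -0.89 ± 0.24 (adjusted p = 0.0202). It was the only call among 10 members, beside 10.9% of all probes called either way and 5.03% lower. It was lost without BALB.K 800 cGy replicate 3 (adjusted p = 0.0571) and under the slide block (-1.46, adjusted p = 0.0895). H2-D1 differed by -0.55 ± 0.23, which did not pass (adjusted p = 0.137). Dose and strain cannot be told apart in these values.

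Other genes of the pathway were taken from lists of loading and trimming factors, proteasome subunits, regulators and other class I genes, with 1 probe a gene. The shares to set beside their counts are those of all kept probes, of which 17.4%, 20.3% and 24.3% were called higher and 20.7%, 25.2% and 26.6% lower at 300, 500 and 900 cGy in B10.BR. In BALB.K 18.6%, 24.1% and 27.8% were called higher and 24.3%, 24.0% and 27.7% lower at 300, 400 and 800 cGy. Of 6 loading and trimming genes, 5, 5 and 3 rose at 300, 500 and 900 cGy in B10.BR and 5, 2 and 5 at 300, 400 and 800 cGy in BALB.K, and none fell. Their median change was 0.39, 0.50 and 0.38 in B10.BR and 0.42, 0.22 and 0.55 in BALB.K. Tapbp, the tapasin that bridges class I and the transporter, rose by 0.50, 0.57 and 0.48 in B10.BR and by 0.88, 0.79 and 0.90 in BALB.K. Pdia3, a thiol oxidoreductase of the loading complex, also rose at all 6 doses (0.67, 0.77 and 0.68 in B10.BR, 0.60, 0.41 and 0.61 in BALB.K). The chaperone Calr rose by 0.49 and 0.75 at 300 and 500 cGy in B10.BR and by 0.33 and 0.75 at 300 and 800 cGy in BALB.K. Canx, a chaperone of free heavy chains, rose by 0.25, 0.43 and 0.52 in B10.BR and by 0.21 at 800 cGy in BALB.K.

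Of 7 other proteasome genes, 1, 1 and 0 rose and 0, 0 and 1 fell at 300, 500 and 900 cGy in B10.BR, and 3, 1 and 2 rose and 0, 2 and 1 fell at 300, 400 and 800 cGy in BALB.K. Their median change was 0.00, 0.08 and -0.21 in B10.BR and 0.02, -0.08 and 0.17 in BALB.K. Psmb10, the inducible subunit that replaces Psmb7, rose by 0.29 and 0.42 at 300 and 500 cGy in B10.BR, with -0.01 at 900 cGy, and by 0.71, 0.44 and 0.45 in BALB.K. None of the constitutive subunits was called higher. Psmb5 was called in none of the 6 comparisons (between -0.27 and 0.02), Psmb6 fell in BALB.K at 400 cGy (-0.27), and Psmb7 fell there at 400 and 800 cGy (-0.42 and -0.43). The proteasome activator subunits Psme1 and Psme2 rose in BALB.K at 300 cGy (0.41 and 0.37), Psme1 also at 800 cGy (0.29), and Psme2 fell in B10.BR at 900 cGy (-0.33).

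Of 14 regulators, 5, 5 and 2 rose and 6, 5 and 6 fell at 300, 500 and 900 cGy in B10.BR, and 7, 6 and 6 rose and 1, 2 and 4 fell at 300, 400 and 800 cGy in BALB.K. Their median change was -0.07, -0.13 and -0.07 in B10.BR and 0.29, 0.15 and 0.08 in BALB.K. Nlrc5, the transactivator of class I promoters, rose by 0.53 and 0.64 at 300 and 500 cGy in B10.BR, with 0.09 at 900 cGy (adjusted p = 0.47), and by 1.0, 0.68 and 0.47 in BALB.K. Ifnar2, a subunit of the type I interferon receptor, rose by 0.55, 0.76 and 0.75 in B10.BR and by 0.46, 0.56 and 0.63 in BALB.K. Stat2, which carries type I interferon signals to the nucleus, rose by 0.95, 1.21 and 0.96 in B10.BR and by 1.30, 1.21 and 1.55 in BALB.K. Irf1, an interferon-induced activator of class I genes, was not called in B10.BR (0.06, 0.18 and -0.08) and rose in BALB.K (0.55, 0.31 and 0.39). Irf2, which binds the same elements, fell in B10.BR (-0.43, -0.52 and -0.84) and in BALB.K at 800 cGy (-0.38).

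Of 20 other class I and class I-like genes above background, 12, 14 and 14 rose and 1, 1 and 1 fell at 300, 500 and 900 cGy in B10.BR, and 14, 18 and 16 rose and 0, 0 and 1 fell at 300, 400 and 800 cGy in BALB.K. Their median change was 0.47, 0.61 and 0.68 in B10.BR and 0.68, 0.74 and 1.0 in BALB.K, beside -0.06, -0.08 and 0.01 and -0.13, 0.01 and 0.08 over all kept probes. Fcgrt, the neonatal Fc receptor that pairs with B2m, rose by 1.07, 1.40 and 1.92 in B10.BR and by 1.19, 1.63 and 2.31 in BALB.K, the last the largest change in the list. H2-Q10, a secreted class I chain known from liver, rose by 0.89, 0.94 and 0.98 in B10.BR and by 0.70, 0.82 and 1.36 in BALB.K. H2-T24 rose by 1.45, 1.57 and 1.35 in B10.BR and by 0.86, 0.75 and 1.19 in BALB.K. H2-M9 rose by 1.23 and 2.03 at 500 and 900 cGy in B10.BR and by 1.88 and 1.60 at 400 and 800 cGy in BALB.K, and normexp background correction turned its sign at 500 cGy in B10.BR (-0.0571) and at 800 cGy in BALB.K (-0.0809). Many class I genes are near copies of each other, so that their probes may share signal.

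**Figure D4:**
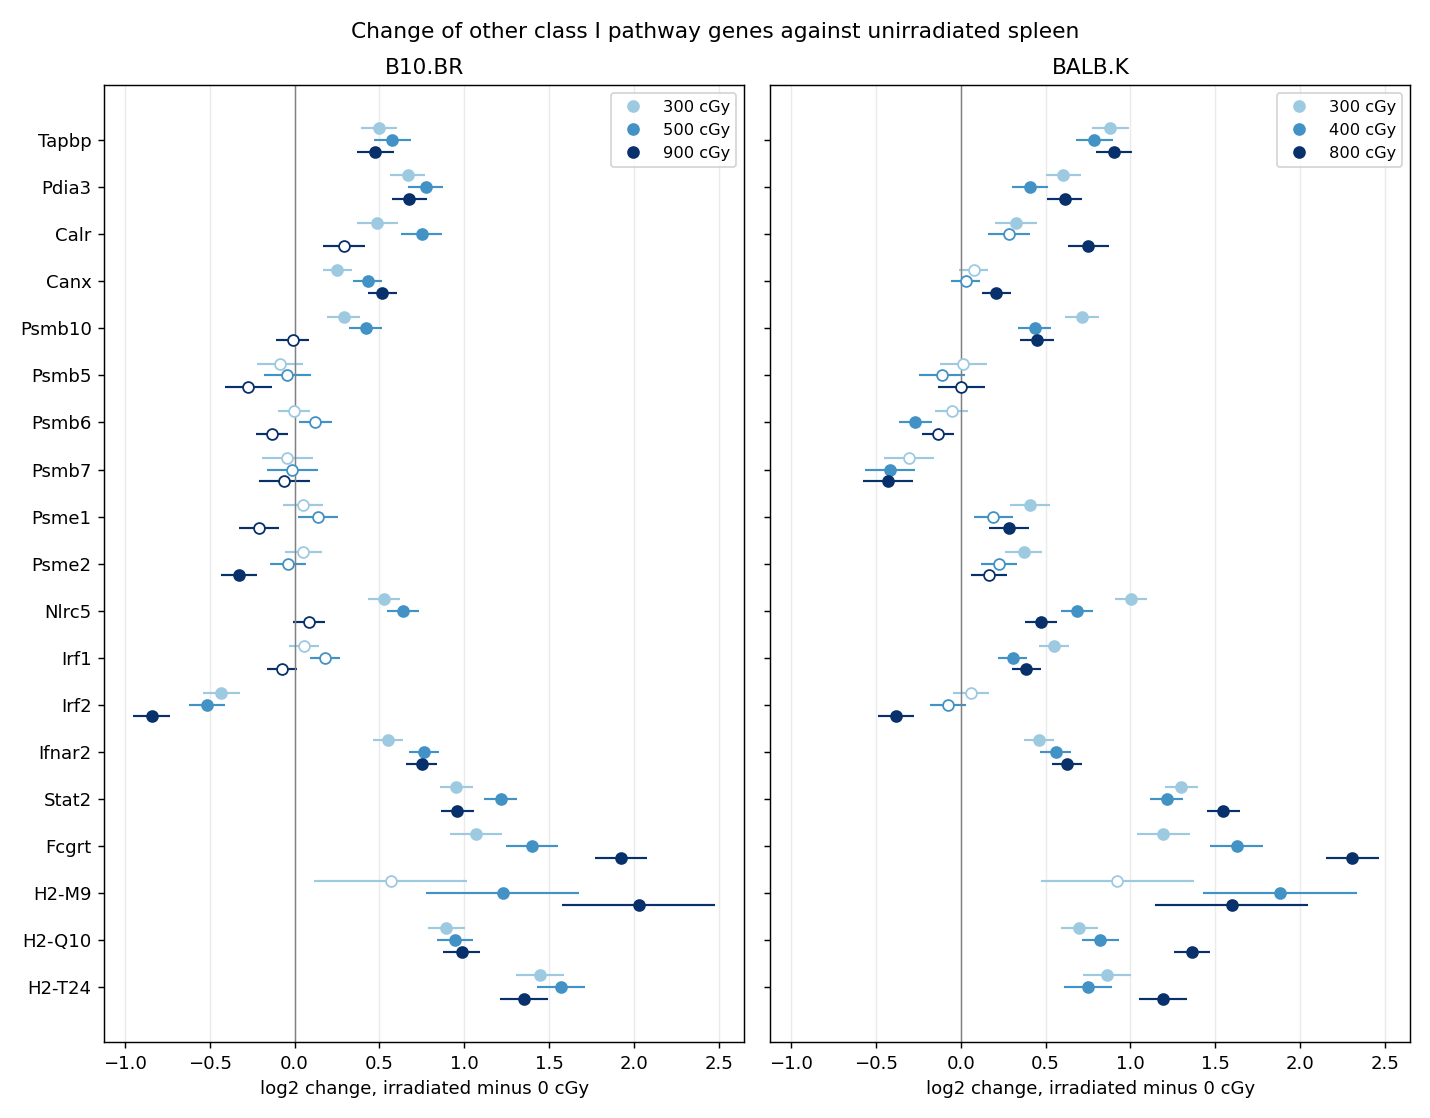
Change against 0 cGy (log2 difference, bars show the standard error of the fit) of the named genes of the pathway at each dose of B10.BR and BALB.K, with filled points past adjusted p 0.05 and open points not. Ifnar2 and Stat2 rise at all 6 doses, Psmb5 at none, and Fcgrt reaches 2.31 in BALB.K at 800 cGy.

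The genes whose pattern was most like that of H2-D1, the member with the largest called change, were found by Pearson correlation of the 8 group means over all named probes. They were Dusp22 (r = 0.995), Cntfr (r = 0.995), Prr13 (r = 0.993), Ttc22 (r = 0.991) and Tmem43 (r = 0.991). These values describe 8 group means that share arrays, scaling and slides.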

How the data were processed

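Whole-spleen RNA was measured on 24 one-colour arrays, 3 for each of 8 strain and dose groups taken from the labels. Per the file headers, the deposited scanner files hold intensity in arbitrary units from Agilent Feature Extraction 10.5.1.1, whose processed signal is background-subtracted, with probe coordinates on mm9. The authors' deposited value table holds log2 values, centred per probe with column medians of -0.12 to 0.18 and the sources used here do not give its normalization. Its B10.BR baseline is unknown, so that it served within a strain only, as an alternative.

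Here log2 of the processed signal minus each array's 75th percentile over non-control spots was used. Spots that the software marks as outliers were left out (13 of 720 member spot values), and spots of a probe were averaged. No spot was saturated and no arrays were identical. Probes well above background on all 3 arrays of at least 1 group were kept. The model, fitted by limma 3.58.1 (R 4.3.3, with data.table version 1.17.8 for reading), held 1 mean for each of the 8 groups of the 24 arrays. Tests were two-sided, with p-values adjusted over all kept probes after Benjamini and Hochberg and a threshold of 0.05. The number of arrays limits the precision. There were 12 comparisons and 1 added after the data were seen, between the strains' changes at their highest doses. The members, the lists and the rule for named genes (all member probes, up to 4 called genes with the largest change in each pathway list plus Nlrc5, Irf1, Psmb10, Psmb5, Psmb6, Psmb7 and Tapbp, and the 5 genes most like the member with the largest change) were chosen with earlier results of these data known. One regulator is not reported here, and the rule was applied to the others. The steps were tested on simulated data. Labels pair no replicates. Residuals of same-numbered arrays all correlated above 0.1 in 1 comparison, B10.BR 900 cGy against 500 (0.185, 0.11 and 0.218), and the main fit has no replicate term. Alternatives were other scalings, background correction, filters, probe choice, moderation, slide or replicate number as a block, fits within a slide or on the compared arrays, exocrine and Y-linked levels as covariates, the deposited table and leaving out each array. Exon and UTR positions of the probes and amino acid sequences were not analysed here.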

Additional observations from a re-analysis of the deposited data

Results flagged for a closer look

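Differences between the strains' changes stood out for 3 results. At 300 cGy the change of H2-M3 in B10.BR minus that in BALB.K was -0.44 (0.03 in B10.BR and 0.47 in BALB.K, adjusted p = 0.0417 by limma), and it lost its call in 9 of 12 fits that left out 1 array, under the slide block (-0.39, adjusted p = 0.163) and with the exocrine pancreas level as a covariate (-0.38, adjusted p = 0.113). The change of Psmb9 at 300 cGy differed by -0.49 (0.21 in B10.BR and 0.70 in BALB.K, adjusted p = 0.0493), and it lost its call in 11 of 12 such fits, the exception being the fit without BALB.K 300 cGy replicate 1. The change of Tap1 at 900 cGy in B10.BR minus that at 800 cGy in BALB.K was -0.89 (0.58 in B10.BR and 1.47 in BALB.K, adjusted p = 0.0202), and with detection of Y-linked genes as a covariate it was -0.68 (adjusted p = 0.0627). The causes were not tested.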

How the results depend on the processing

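Of 136 member values, 136 kept their direction and call with outlier spots kept, 133 with the replicate block (2 gained a call, and no count of calls moved by over 1.5 times), 126 with normexp, 108 with quantile normalization, 103 with median scaling, 88 with spike-in scaling, 116 in fits of the compared arrays only and 93 with slide as a block. The cause of each shift was not tested, except that single-slide and two-group fits hold fewer arrays. The counts of members called moved by over 1.5 times as follows. Quantile normalization gave 8 at 300 cGy and 10 at 900 cGy in B10.BR, and normexp 5 at 300 cGy and 1 for 900 against 500 cGy. Median scaling gave 1 for 900 against 500 cGy, 5 for the strain difference at 300 cGy, 2 for 400 against 300 cGy and 1 for 800 against 400 cGy. Spike-in scaling gave 6 at 300 cGy in B10.BR, 3 and 2 at 300 and 400 cGy in BALB.K, 3 between the strains at 0 and 0 for both differences between the strains' changes. The slide block gave 3 at 900 cGy in B10.BR, 4, 1 and 2 at 300, 400 and 800 cGy in BALB.K, 2 between the strains at 0 and 0 for both differences. Fits of the compared arrays gave 3 and 4 at 300 and 400 cGy in BALB.K. For the strain difference at 300 cGy these fits, no filter on dim probes and the exocrine covariate gave 0. Within slide 2, which holds 1 array of 300 cGy in BALB.K, assumed to vary like the others, 1 was called at that dose, and within slide 3, 1 for 800 against 400 cGy. The Y-linked covariate gave 3 for the difference at the highest doses, and the deposited values gave 1 for 900 against 500 cGy and 1 for 800 against 400 cGy.

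Leaving out 1 array gave 1 to 3 calls at 300 cGy, 3 to 6 at 500 cGy and 6 to 6 at 900 cGy in B10.BR, 6 to 8 at 300 cGy, 4 to 9 at 400 cGy and 6 to 8 at 800 cGy in BALB.K, 0 to 1 for 400 against 300 cGy, 1 to 2 for 800 against 400 cGy, 9 to 10 between the strains at 0, 0 to 3 for the strain difference at 300 cGy and 0 to 1 for that at the highest doses. Signal limits H2-T3, which has only a bound in BALB.K. Signs of values called in at least one of the fits compared turned as follows, and those of 12, 13, 17 and 10 member values called in neither also turned with quantile, median and spike-in scaling and the slide block. Quantile normalization gave 0.32 for the first H2-K1 probe at 300 cGy, and 0.33 for Psmb10, 0.13 for Psme2 and 0.23 for Irf1 at 900 cGy and 0.32 for Psme2 at 500 cGy, all in B10.BR. Spike-in scaling gave 0.0584 for Psme2 at 900 cGy in B10.BR and, between the strains at 0, -0.27 for the first H2-K1 probe, -0.68 for H2-T23, -0.0619 for H2-M3, -0.0425 for Tap1, -0.13 for Tap2 and -0.16 for Psmb9. Normexp gave -0.0571 for H2-M9 at 500 cGy in B10.BR and -0.0809 at 800 cGy in BALB.K, and the slide block -0.18 for Psmb8 at 400 cGy and -0.12 for Psme1 at 800 cGy in BALB.K.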
